A study of Mus musculus with 20 samples.

Results

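The genes described here are 38 well-known target genes of the transcription factor p53 (Trp53 in the mouse), Trp53 itself among them, in sorted mouse keratinocytes. They were chosen by symbol from a list of p53 targets; the choice rule used no expression value, but the list was drawn up with earlier results of these data known. Each symbol was found once in the deposited count table of 25719 genes. All 38 passed the filter on low counts, which left 12424 genes to test. Keratinocytes, the epithelial cells of the epidermis, make glucocorticoids locally through the enzyme encoded by Cyp11b1. In the study, K14-CreERTam x Cyp11b1 L2/L2 mice carried floxed Cyp11b1 and a tamoxifen-inducible Cre under the keratin 14 promoter, which is active in basal keratinocytes; they are called cKO. The controls were littermates with the same floxed Cyp11b1 and no Cre, so that loss of Cyp11b1 and presence of Cre cannot be told apart in any cKO against control difference. Every mouse, controls included, received tamoxifen on 5 consecutive days, either on the skin (topical, 20 µl in ethanol on the ear and 100 µl on the dry-shaved back) or by injection into the peritoneum (systemic, 100 µl of 10 mg/ml in oil and ethanol). Shaving and the solvent differed with the route and cannot be told apart from it. On day 6, keratinocytes of ear and dorsal skin were isolated and sorted, and RNA of an equal number of cells per mouse was sequenced, with 5 mice in each of the 4 groups and ages not given in the sources used here.

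p53 is held at low levels by the ubiquitin ligase Mdm2 and is stabilised by DNA damage and other stresses, after which it activates genes that stop the cell cycle, repair DNA, adjust metabolism or trigger apoptosis. Mdm2 is itself a target, which closes a negative feedback loop, and Cdkn1a, which encodes the cyclin-dependent kinase inhibitor p21, is the target most often used as a readout. In skin, p53 is best known for the sunburn response of keratinocytes to ultraviolet light, and Perp, one of its targets, is also a structural part of desmosomes.

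p53 binds paired copies of a 10-base element, the p53 half-site, which reads the same on both strands by its definition. RefSeq promoter windows on GRCm38.p6, running from 250 bases before to 50 bases after a transcription start, were matched by symbol for 30 of the 38 genes. The half-site was found in 14 of 44 windows of these genes (31.8%), against 2745 of 32851 windows of all genes (8.36%). Counted by gene, 13 of 30 target genes (43.3%) had one in any window, against 9.55% of all genes with a window. A second half-site within 13 bases of the first was found in 1 window of the target genes, that of Cdkn1a with a gap of 12 bases, and in 0.0731% of all windows. The other Cdkn1a window, chr17:29093519-29093818, belongs to a start further along the gene and held no half-site. A match is a description of the letters and does not show binding. The 5 stretches below are shown because they belong to the feedback gene Mdm2, to p21, and to the 3 genes with the smallest adjusted p in topical cKO against topical control. Each runs 5′ to 3′ on the gene's strand over 220 bases ending 30 bases before the start, with half-sites in capitals.
Ccng1, chr11:40755317-40755536, minus strand, half-site 185 bases before the start: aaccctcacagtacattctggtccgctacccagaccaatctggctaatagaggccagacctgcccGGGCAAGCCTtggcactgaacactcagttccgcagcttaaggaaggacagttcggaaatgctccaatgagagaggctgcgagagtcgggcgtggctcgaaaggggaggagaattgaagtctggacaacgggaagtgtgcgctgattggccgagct
Polk, chr13:96519218-96519437, minus strand, half-site 231 bases before an alternative start inside the gene: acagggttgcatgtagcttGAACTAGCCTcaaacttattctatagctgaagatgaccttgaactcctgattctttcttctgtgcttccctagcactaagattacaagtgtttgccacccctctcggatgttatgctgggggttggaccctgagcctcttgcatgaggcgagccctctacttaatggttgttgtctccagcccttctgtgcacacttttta
Bax, chr7:45466929-45467148, minus strand, half-site 201 bases before the start: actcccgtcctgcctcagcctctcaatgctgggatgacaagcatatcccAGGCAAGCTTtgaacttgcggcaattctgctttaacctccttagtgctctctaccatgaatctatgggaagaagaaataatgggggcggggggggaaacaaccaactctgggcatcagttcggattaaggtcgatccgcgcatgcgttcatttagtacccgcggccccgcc
Mdm2, chr10:117710789-117711008, minus strand, half-site 186 bases before the start: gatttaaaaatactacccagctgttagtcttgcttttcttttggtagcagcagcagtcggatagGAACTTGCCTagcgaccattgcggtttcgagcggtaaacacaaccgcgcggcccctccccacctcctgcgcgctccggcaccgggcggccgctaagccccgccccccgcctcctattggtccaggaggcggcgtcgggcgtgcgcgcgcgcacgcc
Cdkn1a, chr17:29090729-29090948, plus strand, half-sites 73 and 51 bases before the start: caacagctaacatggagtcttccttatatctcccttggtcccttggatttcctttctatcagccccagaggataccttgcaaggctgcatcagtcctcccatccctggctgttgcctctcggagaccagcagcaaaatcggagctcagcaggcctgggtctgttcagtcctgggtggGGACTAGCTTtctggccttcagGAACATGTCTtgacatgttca
In topical cKO against topical control, the median log2 fold change was 0.45 for the 13 genes with a half-site in a window and 0.37 for the 17 without one, and this difference was not tested.

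The libraries held 11588851 (systemic cKO 2) to 50082771 (systemic cKO 4) counts. Levels are given as CPM, counts scaled to a common library size, with TMM factors that correct for composition. Differences are log2 fold changes, where 1 is a level 2 times as high, with their standard error (SE) from edgeR's quasi-likelihood model of all 20 mice. A gene is said to have risen or fallen where the p-value adjusted by Benjamini-Hochberg over the 12424 genes was under 0.05. Cyp11b1 itself was covered by 9 reads in topical controls, 7 in topical cKO, 2 in systemic controls and 4 in systemic cKO, at most 6 in a library, so its loss was not detectable at this depth. Keratinocyte markers were high in every library (summed 61055 to 144495 CPM over 9 genes), and the pan-leukocyte gene Ptprc had 0 reads in 10 of the 20 libraries. Transcripts of 12 satellite-like repeat genes set 6 libraries apart, all 5 systemic controls and systemic cKO 2, with 79.4 to 37287 CPM against at most 42.5 CPM in the other libraries. Among systemic mice this split follows genotype but for 1 library, so results on systemic mice are given with that library, without it, and with the split as a covariate. In bulk RNA, fewer cells of a type and less RNA per cell cannot be told apart.

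Ordered by level per kilobase of exon, Perp stood far above the other targets with 8475 CPM per kb (mean of 20 mice, range over mice 5055 to 12366). Cdkn1a followed with 283 CPM per kb (138 to 491), then Rps27l, a ribosomal protein S27 paralog, with 144 (70.3 to 237) and Phlda3, an inhibitor of Akt signalling, with 109 (61.7 to 166). The ranges of each neighbouring pair among Cdkn1a, Rps27l and Phlda3 overlapped, whereas those of Perp and Cdkn1a did not. Trp53 itself came next with 29.6 CPM per kb (19.5 to 41.3), overlapping Triap1 below it (16.2 to 41.5). The lowest were Gdf15, a secreted stress cytokine, with 0.205 CPM per kb and Eda2r, a death-domain receptor, with 0.140 CPM per kb. Reads of Rps27l may be shared with its paralog Rps27.

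Trp53 mRNA did not pass the test in any comparison. It measured 119, 147, 104, 106 and 140 CPM in topical controls (mice 1, 3, 5, 6 and 7) and 167, 86.6, 167, 95.7 and 127 CPM in topical cKO (mice 2, 3, 4, 5 and 7). Systemic controls (mice 1, 3, 4, 5 and 6) had 128, 93.8, 129, 135 and 78.7 CPM, and systemic cKO (mice 2, 4, 5, 6 and 7) had 122, 149, 115, 93.0 and 93.1 CPM. The 4 groups overlapped throughout, and the log2 fold change of cKO against control was 0.06 ± 0.21 (SE) in topical and 0.02 ± 0.21 in systemic mice. Its sign is therefore not defined, and it turned negative when topical cKO 2 or topical cKO 4 was left out (log2 -0.04 and -0.05). mRNA of Trp53 says nothing on the amount or activity of the protein, which is regulated mainly by its stability.

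After topical tamoxifen, most p53 targets lay above their control level in cKO keratinocytes, while the test named only Ccng1 and Polk. Of the 38 genes, 33 had a log2 fold change above 0, with a median of 0.38, against 54.0% of all genes and a median of 0.02. Ccng1 and Polk rose and none fell, which is 2 of 38 where 0.129% of all genes were called. At an unadjusted p under 0.05 there were 15 of 38, against 5.66% of all genes. In 6 genes (Ccng1, Polk, Bax, Ercc5, Psrc1 and Apaf1) every cKO mouse lay above every control mouse, against 0.845% of all genes, and in none did every cKO mouse lie below. The median over the 38 genes stayed between 0.33 and 0.46 when any 1 of these 10 mice was left out.

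**Figure D1:**
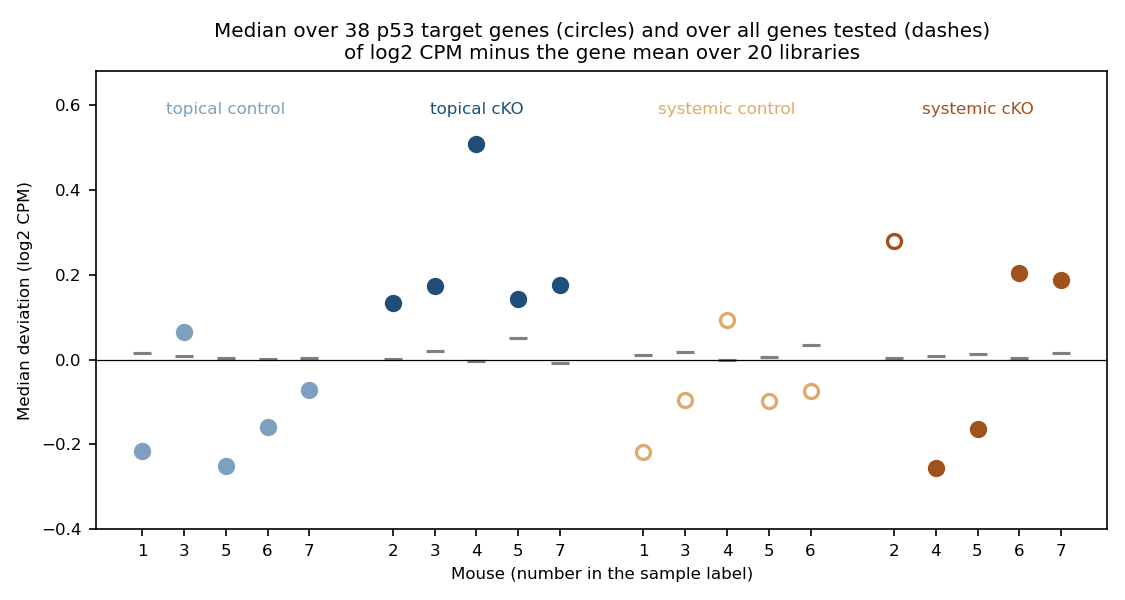
Median over the 38 p53 target genes of each gene's log2 CPM relative to its mean over the 20 mice (y axis), for each mouse (points) by group (x axis), with open points for the 6 libraries with over 50 CPM of satellite-like transcripts. The 5 topical cKO mice sit between 0.13 and 0.51, above the 5 topical controls at -0.25 to 0.06, while systemic cKO and systemic controls overlap.

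Ccng1 encodes cyclin G1, a p53-induced cyclin that acts on Mdm2 through protein phosphatase PP2A. It measured 24.3, 18.8, 31.9, 18.4 and 20.1 CPM in topical controls and 44.7, 34.4, 50.1, 39.8 and 59.6 CPM in topical cKO. All 5 cKO mice lay above all 5 controls, by log2 1.01 ± 0.18 (SE, adjusted p = 0.0100 by edgeR). Without topical control 6 or topical control 7 the adjusted p of Ccng1 was 0.0580 and 0.0565, with log2 fold changes of 0.94 and 0.97. In systemic mice it measured 19.3, 25.5, 24.6, 20.0 and 23.9 CPM in controls and 37.6, 27.2, 22.4, 23.6 and 28.0 CPM in cKO, groups that overlapped (log2 0.29 ± 0.18).

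Polk encodes DNA polymerase kappa, which copies past damaged bases. It measured 4.24, 3.21, 4.57, 3.64 and 3.88 CPM in topical controls and 7.25, 8.53, 8.46, 8.14 and 12.3 CPM in topical cKO. The groups did not overlap, topical cKO 7 stood apart at the top, and the difference was log2 1.19 ± 0.22 (SE, adjusted p = 0.0178 by edgeR). Leaving out topical cKO 7 gave 1.05 with an adjusted p of 0.0833. Leaving out topical control 1, 3, 6 or 7 gave 1.22, 1.12, 1.16 and 1.18, with adjusted p of 0.0521, 0.0638, 0.0766 and 0.0717. In systemic mice Polk measured 4.66, 7.54, 5.79, 5.93 and 8.38 CPM in controls and 8.72, 3.50, 5.52, 7.34 and 7.63 CPM in cKO, which overlapped.

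Among apoptosis genes, 13 of 15 had a log2 fold change above 0 in topical cKO (median 0.54), 7 had an unadjusted p under 0.05, and none passed by edgeR where DESeq2 called Bax and Aen. Bax, which forms pores in the outer mitochondrial membrane, measured 16.3, 17.9, 10.3, 14.9 and 16.2 CPM in topical controls and 23.5, 20.4, 28.8, 20.9 and 27.6 CPM in topical cKO. These groups did not overlap, yet the difference of log2 0.68 ± 0.15 did not pass over all genes (adjusted p = 0.0818 by edgeR; 0.0150 by DESeq2). Aen, an apoptosis-enhancing nuclease, measured 13.9, 11.7, 13.2, 15.5 and 18.8 CPM in topical controls and 21.7, 21.2, 25.5, 17.9 and 32.1 CPM in topical cKO. Aen overlapped through topical control 7 and topical cKO 5 (log2 0.69 ± 0.16, adjusted p = 0.147 by edgeR).

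The remaining apoptosis genes in topical cKO ranged from log2 -0.19 for Perp to 1.27 for Bbc3. Bbc3, the BH3-only protein PUMA, measured 2.02, 2.73, 0.410, 1.93 and 1.85 CPM in controls and 1.76, 2.77, 6.00, 4.39 and 7.23 CPM in cKO. Its spread between mice was wide, the groups overlapped, and the SE was 0.49. The death receptor Fas measured 3.28, 3.94, 4.71, 4.28 and 4.18 CPM in controls and 5.21, 6.92, 8.15, 9.01 and 4.44 CPM in cKO, overlapping through topical cKO 7 alone (log2 0.74 ± 0.26, adjusted p = 0.739 by edgeR). Apaf1, the scaffold of the apoptosome, was separated between the groups at 1.43 to 2.02 CPM in controls and 2.08 to 3.54 CPM in cKO, with log2 0.56 ± 0.27.

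All 9 genes of the feedback and cell-cycle arm had a log2 fold change above 0 in topical cKO, from 0.06 for Trp53 and Ckap2, a spindle-associated protein, to 1.01 for Ccng1 (median 0.45), and Ccng1 alone passed the test. Cdkn1a measured 588, 678, 491, 740 and 727 CPM in topical controls and 973, 858, 1371, 592 and 907 CPM in topical cKO. Of the cKO mice 4 lay above all controls and topical cKO 5 lay among them (log2 0.54 ± 0.25, adjusted p = 0.839 by edgeR). Mdm2 measured 28.3, 39.5, 34.1, 41.5 and 40.7 CPM in topical controls and 42.1, 53.3, 73.9, 37.7 and 45.5 CPM in topical cKO. Here too topical cKO 5 was the overlapping mouse (log2 0.45 ± 0.19, adjusted p = 0.799 by edgeR). Psrc1, a microtubule-associated protein, did not overlap (1.71 to 3.05 CPM in controls, 3.15 to 6.01 CPM in cKO) and differed by log2 0.88 ± 0.25. Gtse1, another microtubule-binding protein that exports p53 from the nucleus, differed by log2 0.72 ± 0.21.

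In the repair arm 5 of 6 genes had a log2 fold change above 0 (median 0.43), and Polk alone passed. Ercc5, the XPG nuclease of nucleotide excision repair, did not overlap, with 9.35 to 13.3 CPM in topical controls and 15.4 to 18.0 CPM in topical cKO (log2 0.61 ± 0.15, adjusted p = 0.147 by edgeR). The damage sensors Xpc and Ddb2 stood at 0.26 ± 0.20 and 0.03 ± 0.19, Zfp365 at 0.92 ± 0.30, and Rrm2b, a ribonucleotide reductase subunit, at -0.38 ± 0.22. In the metabolism and signalling arm 6 of 8 were above 0 (median 0.22, none passed by edgeR and 0 had an unadjusted p under 0.05), and these were the smallest differences of the 4 arms by median. Sesn1 and Sesn2, stress sensors that restrain mTORC1, stood at -0.24 ± 0.15 and 0.09 ± 0.29.

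**Figure D2:**
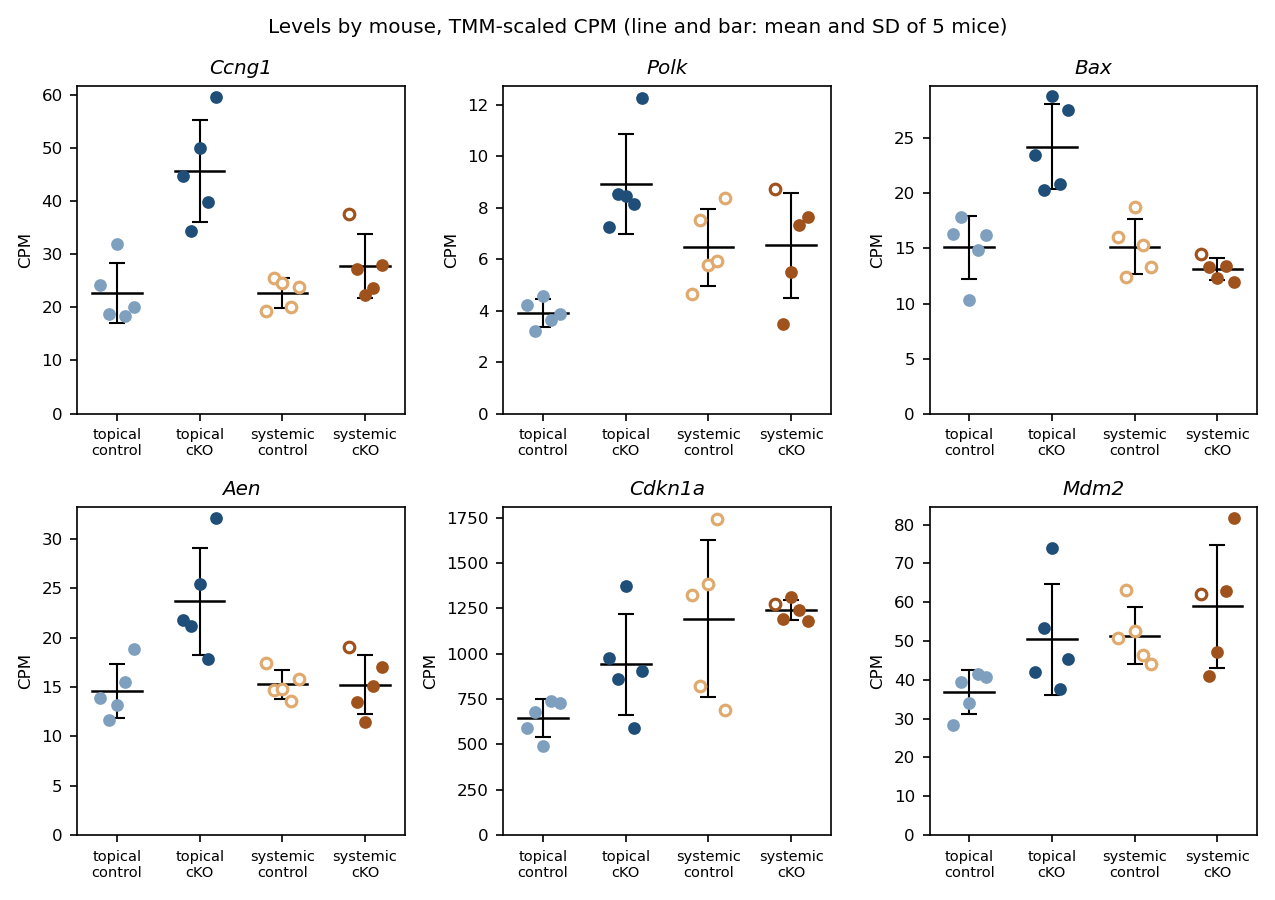
Levels in CPM (y axis, from 0) of p53 targets in each mouse (points) by group (x axis), with a line and bar for mean and SD of 5 mice and open points for the libraries with over 50 CPM of satellite-like transcripts. Ccng1 and Polk in topical cKO lie above all topical controls, whereas systemic cKO and systemic controls overlap for both.

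Few genes of the other lists passed in this comparison. Of 21 tested upstream regulators of p53, such as Atm, Chek2 and Mdm4, none passed by edgeR and 1 had an unadjusted p under 0.05 (median log2 fold change 0.02). Of 22 further reported p53 targets, Notch1, a receptor that drives keratinocyte differentiation, rose by log2 1.52 ± 0.27 (adjusted p = 0.0104 by edgeR), and 16 of 22 lay above 0. Of 24 proliferation genes none passed by edgeR, 0 had an unadjusted p under 0.05, and the median was 0.01. Summed markers of fibroblasts (10 genes) reached 31.1 to 55.7 CPM in topical controls and 31.5 to 100.4 CPM in topical cKO, and hair follicle markers (9 genes) 24.6 to 37.8 and 34.5 to 46.6 CPM, with Shh at 0 reads in 14 of 20 libraries. Of tested fibroblast markers 7 of 8 lay above 0 (median log2 fold change 0.90), and of hair follicle markers 6 of 7 (median 0.30). In each of these lists 2 had an unadjusted p under 0.05. Of 9 keratinocyte markers 6 lay above 0 and 3 below, among them Krt1 at -0.91 ± 0.41 and Krt10 at -0.43 ± 0.28. None of these markers passed the test in topical mice, and their part in the result was not tested. The dissociation-response genes (15 genes, such as Fos and Egr1) summed to 24109 to 46683 CPM in controls and 25190 to 46920 CPM in cKO.

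After systemic tamoxifen, cKO keratinocytes had more Ei24 and Zmat3 mRNA and less Ddb2 mRNA than controls, and the target genes as a whole lay close to the control level. Of the 38 genes, 2 rose and 1 fell, where 1.36% of all genes rose and 0.531% fell (1.89% together). Above 0 were 25 of 38, against 49.5% of all genes, with a median of 0.12. At an unadjusted p under 0.05 there were 6 of 38 genes, a share close to the 15.3% of all genes. In 3 genes (Ei24, Zmat3 and Sesn2) every cKO mouse lay above every control, against 1.02% of all genes.

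Ei24 encodes a membrane protein of the endoplasmic reticulum with a role in autophagy. It measured 10.3, 11.2, 9.15, 10.9 and 12.2 CPM in systemic controls and 16.0, 20.8, 22.3, 28.3 and 27.8 CPM in systemic cKO. All cKO mice lay above all controls (log2 1.10 ± 0.16, adjusted p = 9.26e-04 by edgeR), and Ei24 passed in every fit that left out 1 of these 10 mice. The controls were the group that stood apart, since topical controls had 21.6, 20.5, 21.4, 24.6 and 16.9 CPM and topical cKO 19.4, 27.2, 28.8, 27.2 and 33.5 CPM. A single half-site, GGGCATGCCC, lies 10 bases before the Ei24 start.

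Zmat3, an RNA-binding protein that shifts splicing, measured 9.38, 11.8, 8.36, 7.43 and 9.94 CPM in systemic controls and 14.2, 13.2, 15.8, 20.3 and 17.9 CPM in systemic cKO. The groups did not overlap (log2 0.79 ± 0.16, adjusted p = 0.0148 by edgeR). Without systemic cKO 6 or systemic control 4 the adjusted p was 0.0560 and 0.0508. In topical mice Zmat3 measured 8.37, 11.0, 9.08, 12.1 and 11.2 CPM in controls and 13, 17.9, 18.3, 11.8 and 18.9 CPM in cKO, a difference of log2 0.62 ± 0.16 that did not pass (adjusted p = 0.318 by edgeR). The interaction of genotype and route for Zmat3 was 0.17 ± 0.23.

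Ddb2, a subunit of the complex that recognises ultraviolet damage, measured 8.74, 14.2, 13.6, 10.4 and 14.0 CPM in systemic controls and 9.78, 5.74, 4.95, 5.44 and 7.5 CPM in systemic cKO. Systemic cKO 2, the cKO library with high satellite-like transcripts, was the 1 cKO mouse above the lowest control (log2 -0.89 ± 0.19, adjusted p = 0.0152 by edgeR). Without systemic cKO 5, systemic cKO 6 or systemic control 4 the adjusted p of Ddb2 was 0.0617, 0.0580 and 0.0508. Of the exon bases of Ddb2, 23.8% overlap Acp2 on the other strand, and whether counting used strand is not given in the sources used here.

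The systemic calls depended on the libraries with satellite-like transcripts. Without systemic cKO 2, 6 target genes passed in place of 3: Ei24, Zmat3, Ddb2, Sesn2, Triap1 and Pidd1. With the split at 50 CPM, or the log2 level of these transcripts, as a covariate, none of the 38 passed by edgeR (3 and 5 had an unadjusted p under 0.05), and none of all genes did. Fold changes with the split as a covariate were 0.58 for Ei24, 0.59 for Zmat3 and -0.32 for Ddb2. All systemic controls and no topical library are over 50 CPM, so that fit sets systemic cKO 2 alone against the 5 controls. Calls lost with the split therefore decide nothing. Because 5 of 5 controls and 1 of 5 cKO libraries are on the high side, genotype and the satellite-like transcripts cannot be told apart among systemic mice. Epidermal immune markers (10 genes, led by Cd74) also summed higher in systemic cKO (21.6 to 35.0 CPM) than in systemic controls (9.87 to 27.5 CPM). All 4 tested melanocyte markers (median -0.68) and 6 of 7 tested hair follicle markers (median -0.48) lay below 0. The haemoglobin gene Hba-a1 stood at 1.10 ± 0.31. None of these markers passed by edgeR (2 of each list and Hba-a1 had an unadjusted p under 0.05), and their part was not tested.

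Other members in systemic mice included Sesn2, at 36.6, 33.2, 42.4, 40.0 and 21.5 CPM in controls and 49.5, 64.1, 80.3, 73.2 and 112 CPM in cKO. These groups did not overlap, and the difference of log2 1.13 ± 0.30 just missed the threshold (adjusted p = 0.0515 by edgeR). DESeq2 called Sesn2, and also Triap1. Triap1, a mitochondrial lipid-transfer protein, measured 28.7, 17.6, 19.6, 25.2 and 20.4 CPM in controls and 21.8, 45.1, 40.9, 32.3 and 30.3 CPM in cKO, overlapping through systemic cKO 2 (log2 0.62 ± 0.17, adjusted p = 0.0687 by edgeR). Pidd1, the scaffold that activates caspase-2, measured 2.55, 2.75, 2.30, 2.72 and 3.01 CPM in controls and 2.38, 1.25, 1.97, 1.01 and 1.88 CPM in cKO. Again systemic cKO 2 was the overlapping mouse (log2 -0.67 ± 0.23, adjusted p = 0.136 by edgeR).

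The common readouts of p53 did not separate systemic cKO from systemic controls. Cdkn1a measured 1324, 821, 1382, 1743 and 687 CPM in controls and 1273, 1192, 1310, 1241 and 1181 CPM in cKO (log2 0.06 ± 0.25). The cKO mice lay within the range of the controls, which was wide. Mdm2 measured 50.7, 63.1, 52.7, 46.3 and 44.1 CPM in controls and 62.1, 40.9, 47.1, 62.9 and 81.7 CPM in cKO (log2 0.20 ± 0.19). Bax measured 16.1, 12.4, 18.8, 15.3 and 13.3 CPM in controls and 14.5, 13.3, 12.3, 13.4 and 11.9 CPM in cKO, which overlapped (log2 -0.21 ± 0.15). By arm, 5 of 9 feedback and cell-cycle genes, 11 of 15 apoptosis genes, 2 of 6 repair genes and 7 of 8 metabolism genes lay above 0. In the other lists, Rchy1, a ubiquitin ligase for p53, rose by log2 0.65 ± 0.15 and Cd82, a tetraspanin and further p53 target, by 1.85 ± 0.29, and no proliferation gene passed by edgeR (1 had an unadjusted p under 0.05). The dissociation-response gene Fosb rose by log2 1.71 ± 0.31 (adjusted p = 0.00521 by edgeR), while that list summed to 33961 to 80423 CPM in systemic controls and 41168 to 68068 CPM in systemic cKO. Its part in the members' differences was not tested.

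**Figure D3:**
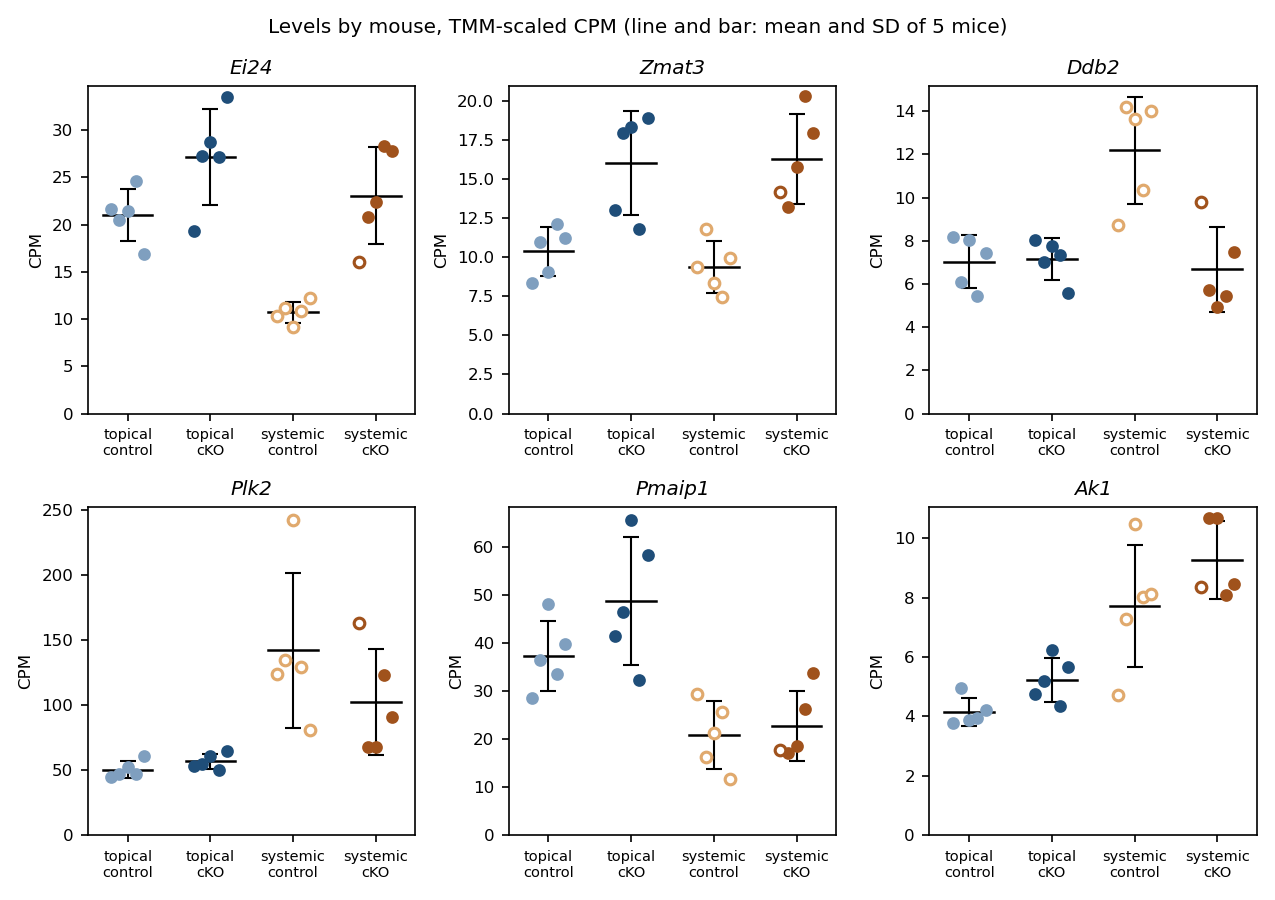
Levels in CPM (y axis, from 0) of 6 p53 targets in each mouse (points) by group (x axis), with a line and bar for mean and SD of 5 mice and open points for the libraries with over 50 CPM of satellite-like transcripts. For Ei24 the 5 systemic controls (9.15 to 12.2 CPM) lie below every other mouse, and for Plk2 and Ak1 the systemic groups lie mostly above the topical ones.

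Whether the genotype difference depended on the route was tested as an interaction, the systemic minus the topical difference. None of the 38 genes passed by edgeR, where 0.185% of all genes were higher and 0.0644% lower (0.25% together); 13 had an unadjusted p under 0.05, against 14.0% of all genes, and DESeq2 called 5 (Bax, Gtse1, Polk, Ddb2 and Psrc1, all lower). The interaction was below 0 in 28 of 38 genes and above 0 in 10, where 47.2% of all genes lay above 0, with a median of -0.33 against -0.03 for all genes. In the feedback and cell-cycle arm all 9 genes lay below 0 (median -0.49). The smallest adjusted p values were those of Bax, -0.89 ± 0.21 (adjusted p = 0.0618 by edgeR), and Polk, -1.20 ± 0.31 (adjusted p = 0.0761 by edgeR). Psrc1 stood at -1.23 ± 0.35 and Ddb2 at -0.91 ± 0.26, while Ei24 and Triap1 were on the other side, each at 0.73. In the other lists, Cd82 passed the interaction test at 2.14 ± 0.40 (adjusted p = 0.0203 by edgeR).

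The result for the target genes turned on 1 library. Without systemic cKO 2, 9 target genes passed: Ccng1 (-0.85), Bax (-0.92), Gtse1 (-1.14), Polk (-1.32), Ddb2 (-1.08), Ercc5 (-0.77) and Psrc1 (-1.44) on the lower side and Ei24 (0.83) and Triap1 (0.86) on the higher side. Without systemic control 1, Polk alone passed (-1.29, adjusted p = 0.0392 by edgeR). With the satellite split or level as a covariate none passed by edgeR (1 and 4 had an unadjusted p under 0.05). The split again leaves systemic cKO 2 alone to stand for systemic cKO. The interaction rests on the same mice as the genotype differences above, so it is no further evidence for them.

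In control keratinocytes, 10 target genes passed between systemic and topical tamoxifen. Of the 38 genes, 7 rose and 3 fell in systemic against topical controls, where 10.2% of all genes rose and 8.16% fell (18.3% together). The genes that rose were Plk2, Ak1, Cdkn1a, Fas, Ddb2, Pidd1 and Polk, and those that fell were Ei24, Pmaip1 and Triap1. Above 0 were 22 of 38 (50.1% of all genes). At an unadjusted p under 0.05 were 13 of 38, a share close to the 32.9% of all genes. In 5 genes every systemic control lay above every topical control and in 2 below, against 7.54% and 6.26% of all genes.

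Plk2, a polo-like kinase of the centrosome cycle, measured 45, 46.7, 52.3, 47.3 and 60.9 CPM in topical controls and 124, 135, 242, 129 and 80.6 CPM in systemic controls. The groups did not overlap (log2 1.49 ± 0.25, adjusted p = 4.98e-04 by edgeR). Ak1, adenylate kinase 1, measured 3.78, 4.94, 3.89, 3.93 and 4.21 CPM in topical and 4.72, 7.27, 10.5, 8.01 and 8.12 CPM in systemic controls, overlapping in 1 mouse of each group (log2 0.89 ± 0.17, adjusted p = 0.00168 by edgeR). Ei24, with the values given above, fell by 0.97 on the log2 scale (adjusted p = 4.32e-04 by edgeR). Ddb2 measured 8.17, 6.10, 8.05, 5.43 and 7.43 CPM in topical controls, below every systemic control, and rose by 0.79 (adjusted p = 0.00562 by edgeR). Ei24 did not overlap between the routes, and neither did Ddb2.

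Pmaip1, the BH3-only protein NOXA, measured 28.5, 36.5, 48.3, 33.6 and 39.8 CPM in topical and 29.5, 16.3, 21.3, 25.7 and 11.7 CPM in systemic controls. Systemic control 1 was the overlapping mouse (log2 -0.84, adjusted p = 0.0201 by edgeR). Fas in systemic controls measured 4.34, 7.06, 10.9, 7.65 and 7.58 CPM (log2 0.88, adjusted p = 0.0202 by edgeR), and Cdkn1a rose by 0.89 (adjusted p = 0.0174 by edgeR). Pidd1 measured 1.87, 1.74, 1.16, 1.14 and 1.88 CPM in topical controls and Triap1 30.4, 31.8, 33.8, 37.1 and 34.6 CPM. Polk and Pidd1 rose by 0.74 and 0.76, and the routes did not overlap in either. Triap1 fell by 0.59 with no overlap. Its fold change turned to 0.18 with the satellite split as a covariate, a correction set by systemic cKO 2 alone. Mdm2 did not overlap either but did not pass (log2 0.48 ± 0.19, adjusted p = 0.0835 by edgeR).

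All systemic controls and no topical library had high satellite-like transcripts, so that route and this split cannot be told apart among controls; with the split or the level as a covariate no target gene passed by edgeR (1 and 4 had an unadjusted p under 0.05). The fold changes moved unequally. With the split as a covariate Cdkn1a and Ak1 stood at 0.84 and 1.08, near or above the 0.89 of each without it, and with the level at 1.01 and 0.84. Plk2 stood at 0.59 with the split and 1.15 with the level, Ei24 at -0.34 and -0.81, and Pmaip1 at -0.42 and -0.48. Ddb2 dropped to 0.063 and 0.37, Polk to 0.18 and 0.30, Pidd1 to 0.12 and 0.45, and Fas to 0.27 and 0.38. Triap1 stood at 0.18 and -0.11. Without systemic control 3 or systemic control 6, 6 of the 10 passed. Pidd1, Polk, Pmaip1 and Triap1 had adjusted p of 0.0519, 0.0617, 0.0606 and 0.0699 without systemic control 3, and 0.0605, 0.0756, 0.0574 and 0.0549 without systemic control 6. Calls also ended for Cdkn1a without systemic control 5 (0.0524), for Fas without topical control 1 (0.0538) or systemic control 4 (0.0689), for Polk without topical control 3 (0.0610) and for Triap1 without systemic control 4 (0.0576). Without topical control 5 those of Pidd1 and Pmaip1 ended (0.0571 and 0.0538), as did that of Pidd1 without topical control 6 (0.0583).

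Dissociation-response genes moved with the route as well. They summed to 24109 to 46683 CPM in topical controls and 33961 to 80423 CPM in systemic controls, and 5 of 15 rose (Fos, Egr1, Atf3, Btg2 and Hspa1a). Atf3 and Btg2 are also reported p53 targets and were counted in both lists. Of the 22 further p53 targets, 3 rose (Btg2, Atf3 and Casp1, the last with log2 0.85). In the same list 2 fell (Ddit4, log2 -1.20, and Btg1, log2 -0.83). Of the upstream regulators, Mdm4 rose by log2 1.32 ± 0.23, Usp7 by 0.89, Ep300 by 0.82 and Trp53bp1 by 0.59, while Rchy1, Rpl5, Rpl11 and Rpl23 fell by 0.77, 0.78, 0.79 and 1.35. Among 24 proliferation genes 4 fell (Cdk1, Mcm3, Mcm5 and Pcna), and none rose. Of the cell type markers, Krt15, a keratin of basal and hair follicle bulge cells, rose by log2 1.25 ± 0.32, the melanocyte gene Pmel by 0.77 ± 0.21 and the haemoglobin gene Hba-a1 by 1.02 ± 0.34. All 7 sebaceous gland markers lay below 0 (median -0.61; summed 1005 to 2224 CPM in topical and 262 to 1717 CPM in systemic controls), and none of them passed by edgeR (1 had an unadjusted p under 0.05). Melanocyte markers (7 genes) summed to 5.03 to 12.9 and 9.55 to 24.2 CPM, with Sox10 at 0 reads in 15 of 20 libraries. The part of these lists in the members' differences was not tested.

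In cKO keratinocytes, systemic against topical tamoxifen gave 3 target genes that rose (Plk2, Ak1 and Sesn1) and 4 that fell (Bax, Pmaip1, Ccng1 and Aen), where 5.19% of all genes rose and 4.02% fell (9.22% together). Below 0 were 27 of the 38 and above 0 were 11 (48.5% of all genes), with a median of -0.14, and 13 had an unadjusted p under 0.05 (23.1% of all genes). Every systemic cKO mouse lay below every topical cKO mouse for Bax and above for Plk2 and Ak1, against 3.32% and 4.07% of all genes. This comparison uses the same cKO mice as the genotype comparisons, so their values are set side by side and not counted as separate evidence.

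Bax fell by 0.89 on the log2 scale between 20.4 to 28.8 CPM in topical cKO and 11.9 to 14.5 CPM in systemic cKO (SE 0.15, adjusted p = 5.31e-04 by edgeR), whereas the 2 control groups had a difference of 0.0013 ± 0.15. Pmaip1 measured 41.4, 46.5, 65.6, 32.3 and 58.4 CPM in topical cKO and 17.8, 17.2, 18.6, 26.2 and 33.9 CPM in systemic cKO (log2 -1.10 ± 0.24, adjusted p = 0.00554 by edgeR). Only topical cKO 5 and systemic cKO 7 overlapped for Pmaip1. Ccng1 fell by 0.72 (adjusted p = 0.0109 by edgeR) and Aen by 0.64 (adjusted p = 0.0150 by edgeR), the latter to 19.0, 13.5, 11.5, 15.1 and 17.1 CPM in systemic cKO. Aen ended as a call without topical cKO 7 (0.0515) or systemic cKO 5 (0.0501).

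Sesn1 measured 22.1, 16.0, 21.1, 14.7 and 17.9 CPM in topical cKO and 29.5, 32.0, 32.1, 20.4 and 22.3 CPM in systemic cKO, overlapping in part (log2 0.57 ± 0.15, adjusted p = 0.0163 by edgeR). The adjusted p of Sesn1 was 0.0599 without topical cKO 5 and 0.0522 without systemic cKO 5. Ak1 measured 4.74, 5.19, 6.23, 4.34 and 5.66 CPM in topical and 8.37, 10.7, 10.7, 8.09 and 8.44 CPM in systemic cKO (log2 0.84 ± 0.17, adjusted p = 0.00322 by edgeR). Plk2 measured 53, 54.5, 60.6, 50.4 and 64.8 CPM in topical and 163, 67.5, 67.8, 123 and 90.5 CPM in systemic cKO (log2 0.85 ± 0.25, adjusted p = 0.0337 by edgeR). Plk2 was highest in systemic cKO 2, and without that library its fold change was 0.62 with an adjusted p of 0.115. It also missed the threshold without topical cKO 2, 3, 4 or 5 or systemic cKO 6 (adjusted p of 0.0771, 0.0616, 0.0546, 0.0841 and 0.0823).

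Because 4 of 5 systemic cKO libraries resemble the topical ones in satellite-like transcripts, this comparison could be made without the split. Leaving out systemic cKO 2 gave 8 calls: Bax, Pmaip1, Ccng1, Aen, Gtse1 and Psrc1 fell, and Ak1 and Sesn1 rose. Gtse1 and Psrc1 then stood at -0.73 and -0.94 (adjusted p of 0.0310 and 0.0151 by edgeR). In the other lists, 5 of 15 dissociation-response genes rose (Fos, Fosb, Egr1, Ier2 and Btg2), Cd82 rose by log2 1.97 ± 0.29, Mdm4 rose by 0.78 and the replication licensing genes Mcm2 and Mcm3 fell by 0.71 and 0.86. Btg1, a further p53 target, fell (log2 -0.75, adjusted p = 0.0471 by edgeR). Markers of other cell types moved beside Bax, Pmaip1, Ccng1 and Aen. Plin2, a lipid droplet protein listed for sebaceous gland, fell by 1.65 (adjusted p = 0.0194 by edgeR), the hair follicle gene Tbx1 fell by 1.05 (adjusted p = 0.0121 by edgeR), and Hba-a1 rose by 2.71 (adjusted p = 5.22e-05 by edgeR). Hair follicle markers summed to 34.5 to 46.6 CPM in topical and 18.7 to 32.1 CPM in systemic cKO, and sebaceous gland markers to 781 to 2796 and 201 to 3447 CPM. All 8 tested fibroblast markers lay below 0 (median -1.17; summed over 10 genes, 31.5 to 100.4 and 26.6 to 49.3 CPM), as did all 5 tested endothelial markers (median -0.92; summed over 6 genes, 1.31 to 6.59 and 1.06 to 4.49 CPM), and none of either list passed by edgeR (2 and 1 had an unadjusted p under 0.05). Epidermal immune markers summed to 8.30 to 23.5 CPM in topical and 21.6 to 35.0 CPM in systemic cKO. The part of these markers in the members' differences was not tested.

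**Figure D4:**
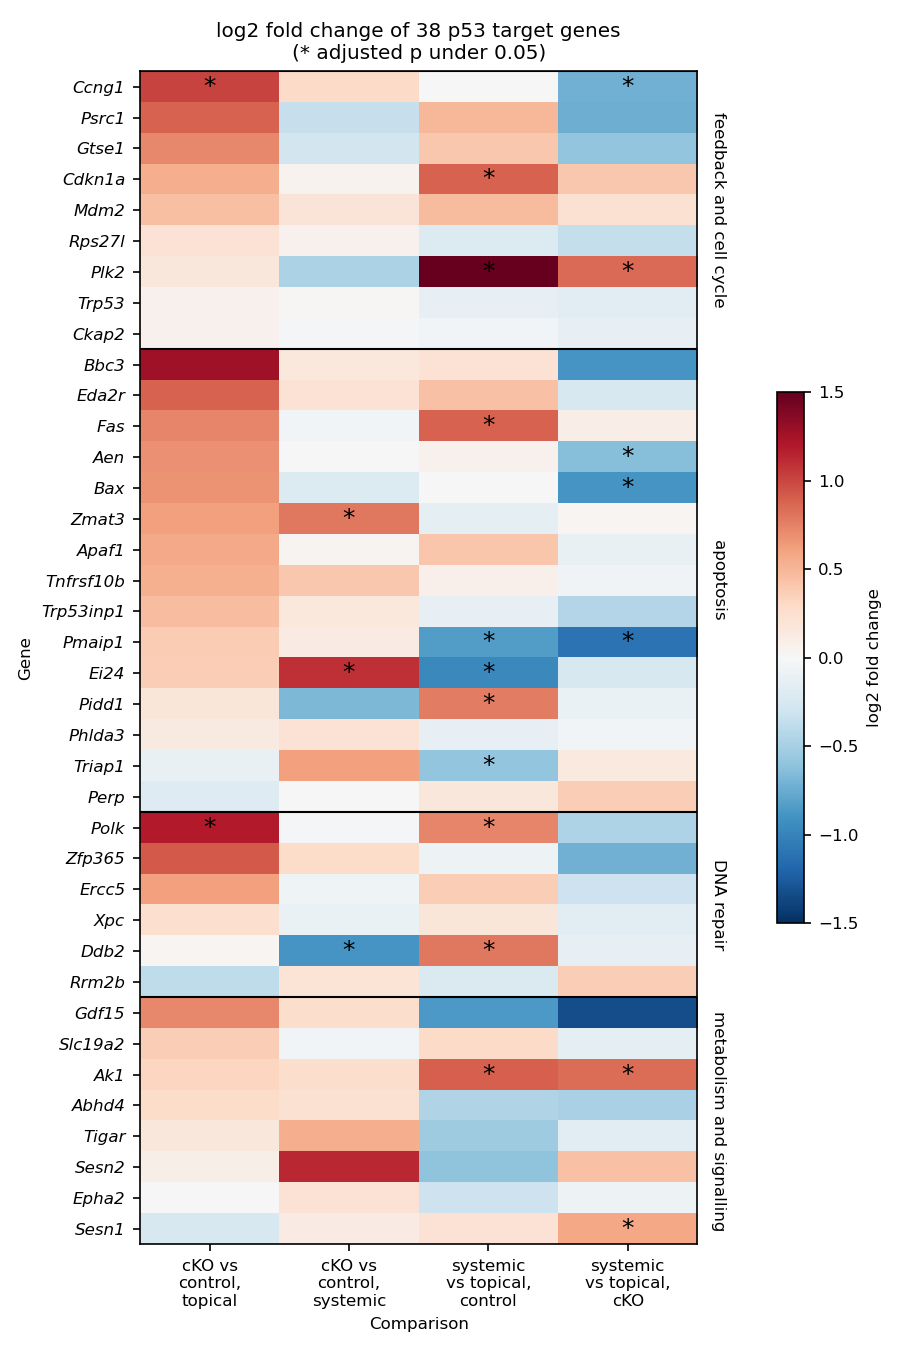
Log2 fold change of each of the 38 p53 target genes (y axis, by arm) in the 4 comparisons (x axis), as colour, with an asterisk where the edgeR adjusted p was under 0.05. The first column, topical cKO against control, is above 0 in 33 of 38 genes, and the last, systemic against topical cKO, is below 0 in 27.

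In the groups of the called genes not given above, Ddb2 measured 8.03, 7.03, 7.77, 7.35 and 5.58 CPM in topical cKO, Pidd1 2.04, 1.44, 1.92, 1.99 and 1.48 CPM, and Triap1 32.2, 25.7, 32.5, 25.7 and 38.9 CPM, each overlapping topical controls. Fas measured 10.1, 4.45, 4.81, 8.41 and 9.13 CPM in systemic cKO, and Aen 17.4, 14.7, 14.7, 13.6 and 15.8 CPM in systemic controls, each overlapping the other systemic group. Sesn1 measured 24.3, 24.7, 20.4, 20.2 and 18.6 CPM in topical controls and 27.8, 20.7, 25.1, 27.0 and 24.9 CPM in systemic controls, which overlapped.

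The other members passed in no comparison. In topical and systemic cKO against control they stood at 0.46 and 0.15 for Trp53inp1, which promotes p53 phosphorylation, at 0.13 and 0.22 for Phlda3, at 0.89 and 0.21 for Eda2r, at -0.19 and 0.01 for Perp and at 0.54 and 0.41 for the TRAIL receptor Tnfrsf10b. Rps27l stood at 0.22 and 0.07, Tigar, a phosphatase that lowers glycolytic flux, at 0.17 and 0.54, and the thiamine transporter Slc19a2 at 0.37 and -0.04. Abhd4, a lipid hydrolase, stood at 0.27 and 0.23, the ephrin receptor Epha2 at -0.01 and 0.22, and Gdf15 at 0.73 and 0.26 with SE of 0.67 and 0.80. Gdf15 had no reads in topical cKO 7 and systemic control 3, and its differences were not detectable at this depth.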

How the data were processed

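The deposited values are raw counts of reads per gene, made by the authors with STAR and featureCounts on GRCm38 (mm10), per the submitters' processing notes; versions, strand setting and annotation release are not given in the sources used here. Libraries followed a SmartSeq protocol on sorted cells, per the labels' protocols. Counts were taken as deposited and fitted in edgeR 4.0.16 (R 4.3.3) after filterByExpr (minimum count 10, minimum total 15) and TMM scaling, with 1 quasi-likelihood model over the 4 groups and 20 mice, and contrasts for genotype within route, route within genotype and their interaction. Calls are Benjamini-Hochberg adjusted p under 0.05. DESeq2 1.42.0 was an alternative, as were other filters and scaling, covariates (sex read from Y-linked genes, percent of mitochondrial counts, satellite-like transcripts), a replicate block and leaving out each mouse. The procedure was tested on simulated counts. Precision is limited by 5 mice per group, and low genes rest on few reads.

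The 38 genes, their arms and the other gene lists were chosen with earlier results of these data known. Values are printed by mouse for Trp53, Cdkn1a, Mdm2 and every target called in at least 1 comparison, and for a few others beside them chosen after their values were seen (Bbc3, Sesn2). Of other lists up to 5 called genes per direction are named. Gene positions and exon overlaps come from GENCODE on GRCm38.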

Additional observations from a re-analysis of the deposited data

Results flagged for a closer look

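In 68 sets of 5 mice (17 genes by 4 groups), 1 had a mouse far from the others: Polk in topical cKO 7 measured 12.3 CPM, with the next mouse at 8.53 CPM, a gap of 0.745 of the group's range against a limit of 0.71. About 1 in 20 sets is marked by chance. Polk did not pass in topical mice without this library (adjusted p = 0.0833 by edgeR). No target gene passed the edgeR test of the interaction of genotype and route (13 had an unadjusted p under 0.05, and DESeq2 called 5).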

How the results depend on the processing

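The number of target genes called in topical cKO against control (2) was 5 with DESeq2 (Ccng1, Aen, Bax, Polk and Ercc5) and 0 to 2 without 1 mouse. In systemic mice (3) it was 5 with DESeq2, 5 with a mean of at least 5 CPM, 6 with percent mitochondrial as a covariate, 1 when fitted on the libraries compared alone, 0 with either satellite-like covariate and 1 to 6 without 1 mouse. Between routes it was 0 with either satellite-like covariate in controls (10; 6 to 10 without 1 mouse) and 4 on the libraries compared alone in cKO (7; 5 to 8 without 1 mouse). The interaction (0) gave 5 with DESeq2, 1 with at least 5 CPM, 4 with percent mitochondrial, 1 with sex and 0 to 9 without 1 mouse. Other counts were within 1.5 times those reported. With the replicate number as a block, 0, 3, 9, 6 and 0 genes were called in these 5 tests. Ccng1 and Polk then had adjusted p of 0.299 and 0.0922 by edgeR in topical mice. Between routes the block ended the calls of Cdkn1a and Fas and added Abhd4 in controls, and ended Plk2 in cKO. Deviations of same-numbered mice correlated at -0.145 to 0.338 in topical and -0.018 to 0.241 in systemic mice (3 pairs each). The range was -0.185 to 0.275 in control and -0.314 to 0.292 in cKO mice (4 pairs each). So few pairs cannot settle whether the numbers pair mice. Signs turned for Trp53 with the block at -0.20 (topical), -0.083 (systemic) and 0.12 (interaction); Trp53 and Cdkn1a in systemic mice at -0.073 and -0.037 with log2 satellite-like CPM; the Trp53 interaction at 0.055 with the satellite split and 0.064 with percent mitochondrial. With the satellite split, larger differences turned too, though that correction is set by systemic cKO 2 alone. Triap1 went from 0.62 to -0.029 in systemic mice and from -0.59, a called fall, to 0.18 between routes in controls. Ercc5 went from 0.37 to -0.035 between routes in controls. Without 1 mouse, Trp53 ran from -0.049 to 0.18 (topical), -0.093 to 0.095 (systemic) and -0.15 to 0.070 (interaction), and Cdkn1a from -0.088 to 0.24 (systemic). The cause was not tested. Depth limits the genes under about 1 CPM, Gdf15 and Eda2r.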
